A study of Mus musculus with 8 samples.

Results

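The 10 genes described here belong to the unfolded protein response and the integrated stress response, the programmes by which cells answer misfolded protein and short supply of amino acids. They were taken by name as targets or mediators of the kinase PERK and the transcription factors ATF4 and XBP1, a pathway known to drive loss of the type I interferon receptor: Hspa5, Herpud1, Xbp1, Atf4, Atf5, Ddit3, Trib3, Ppp1r15a, Asns and Chac1. All 10 were among the 16593 named genes of the bead array, with 14 probes in all. RNA came from whole melanomas of C57BL/6 mice, 1 sample on each of 8 arrays. Every mouse carried BrafCA and Tyr::CreER, so that 4-hydroxytamoxifen painted on newborn skin switches on mutant Braf in cells that use the tyrosinase promoter, mainly melanocytes. SA mice carried Ifnar1SA, whose product is known to escape degradation, and WT mice carried Ifnar1+/+. The 4 groups were SA tumours at days 20, 38 and 60 after tamoxifen and WT tumours at day 38, with 2 samples in each group. The protocol text in the labels names Ifnar1-/- mice in place of Ifnar1SA, and the genotype field was followed. Separate mice are not stated for the samples of a group, so the p-values reflect only how far these arrays scatter, which may be technical.

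In a cell with too much unfolded protein, the endoplasmic reticulum (ER) membrane sensors PERK, IRE1 and ATF6 are released from the chaperone BiP. PERK phosphorylates the translation factor eIF2alpha, which slows protein synthesis while it lets ATF4 be translated. IRE1 splices the Xbp1 transcript into the form that makes an active factor, and ATF6 and XBP1 then raise ER chaperones and degradation genes. Signalling through PERK is also known to lead to phosphorylation and removal of the interferon receptor chain IFNAR1. Both eIF2alpha phosphorylation and Xbp1 splicing act after transcription, so transcript levels show the output of the pathway more directly than the state of its sensors.

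Values are log2 intensities of the deposited table after background correction, compared only within a probe. Calls are limma results with an adjusted p (Benjamini-Hochberg) under 0.05 over all 11661 genes that lay above the 40th percentile of mean level (7.24). Of the 14 probes, 12 lay above that limit, and 9 of the 10 genes were tested. The Trib3 probe, with a mean of 7.14, lay just below it. Among all genes the pair of SA arrays at day 20 lay farthest apart, with 9.82% of genes over 1 log2 unit apart, against 5.07% at day 38, 4.92% at day 60 and 1.37% for the WT pair.

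The libraries of SA at day 38 stood apart in sex-linked transcripts: Eif2s3y, on the Y chromosome, read 6.11 and 6.20 there and between 11.37 and 11.80 on the other 6 arrays. At day 38, genotype and sex can therefore not be told apart, and neither can day and sex in comparisons with SA day 38. The SA groups of days 20 and 60 shared the high Eif2s3y pattern. Melanocyte markers (5 measured, among them Dct and Tyrp1) had a mean list level of 9.18 and 12.60 at day 20, 10.88 and 11.35 at day 38 and 12.80 and 13.42 at day 60 in SA, and of 9.66 and 9.54 in WT. The lowest mean was in replicate 1 of day 20, so the level of this list differed between these samples. Not all its markers moved together there: Mitf, at 8.14, lay above both WT arrays (7.32 and 7.47). Skeletal muscle markers (7 measured, among them Acta1 and Ckm) read 13.79 and 12.59, 13.72 and 14.87, and 12.17 and 9.60 in SA at days 20, 38 and 60, and 10.65 and 11.27 in WT. In whole tumours, fewer cells of a type and less RNA per cell cannot be told apart. The part of tissue makeup in the results below was not tested. Ifnar1 itself read between 4.50 and 5.72 on the 8 arrays, below the limit, and Ifnar2, the other chain of the receptor, averaged 8.70, 8.89 and 9.35 in SA at days 20, 38 and 60 and 9.36 in WT.

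None of the 9 tested genes was called by limma in any of the 4 comparisons. In SA against WT at day 38 it was 0 of 9 members, where 0.06% of all genes were called. The shares over all genes were 0.0172% for SA day 38 against day 20, 1.09% for SA day 60 against day 38 and 0% for SA day 60 against day 20, with 0 of 9 members called in each. At an unadjusted p under 0.05 the members numbered 1, 0, 2 and 1 of 9 in the same order of comparisons, against 14.1%, 10.7%, 26.1% and 23.5% of all genes. These shares lie close to the background. The genes with an unadjusted p under 0.05 were Asns in the first comparison, Chac1 and Ppp1r15a in the third, and Chac1 in the last.

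**Figure D1:**
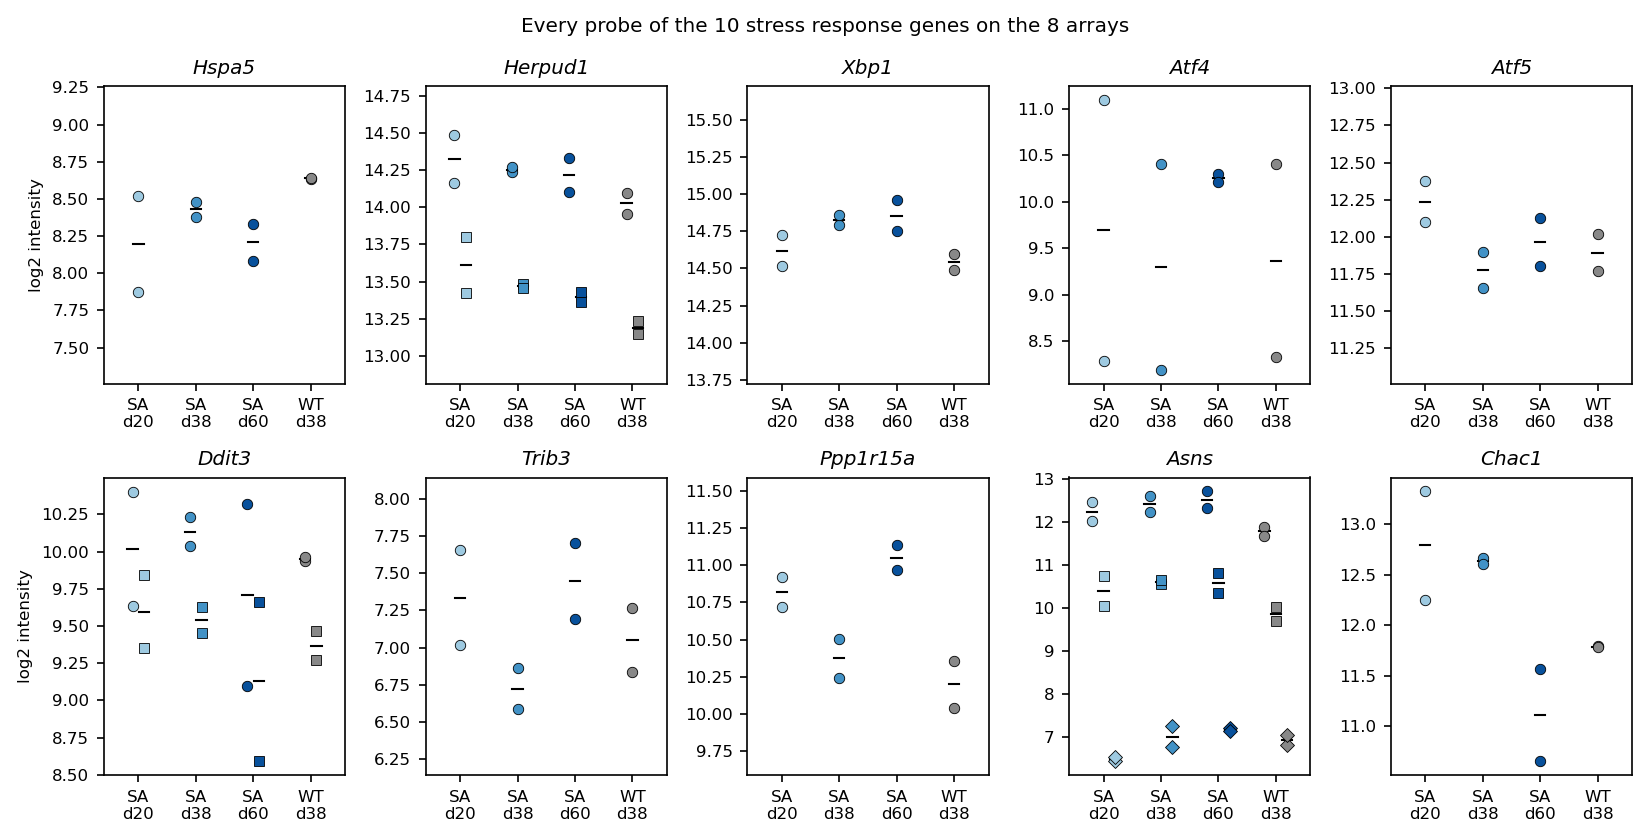
Log2 intensity (y axis) of every probe of the 10 genes on the 8 arrays, with SA tumours at days 20, 38 and 60 (d20, d38, d60) left of WT tumours at day 38. Each point is 1 array, each horizontal line a group mean, and squares and diamonds are further probes of the same gene; Chac1 was lowest in SA at day 60, and Atf4 split within 3 of the 4 groups.

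Hspa5 encodes BiP, the main ER chaperone and the standard marker of ER stress. It read 7.88 and 8.52 in SA at day 20, 8.48 and 8.38 at day 38, 8.08 and 8.33 at day 60, and 8.64 and 8.64 in WT at day 38. The WT pair was the highest of all 8 arrays, and every SA array lay below it. How many of all genes separate in this way was not counted. That gap was small: SA at day 38 lay 0.21 below WT (−0.21, SE 0.23, 95% interval −0.76 to 0.35, limma adjusted p = 0.722), or 0.866 times the WT level with an interval of 0.589 to 1.27 times. The probe is dim: its deposited values ran from 428.5 to 593.3, where the array medians lay between 409.3 and 410. Without background correction the same difference was −0.14.

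Herpud1 encodes an ER membrane protein that helps to pass misfolded proteins to degradation. Its brighter probe read 14.48 and 14.16 in SA at day 20, 14.23 and 14.27 at day 38 and 14.10 and 14.33 at day 60, and 13.96 and 14.09 in WT. Each SA array lay above both WT arrays, although the lowest SA array (14.10) and the higher WT array (14.09) differed by almost nothing. The second probe gave the same order with no overlap, at 13.36 to 13.80 in SA and 13.15 and 13.23 in WT. For this kind of separation, too, the share over all genes was not counted. Between SA and WT at day 38 the probes differed by 0.23 (95% interval −0.19 to 0.64, adjusted p = 0.583) and by 0.28 (adjusted p = 0.504 in the fit on every probe), and neither passed.

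The promoters of these genes were searched for matches to 3 published kinds of response element. The ER stress response element searched was CCAAT followed by CCACG with 9 free bases between, its short second form was ATTGG followed by CCACG with 1 free base between, and the C/EBP-ATF composite element bound by ATF4 was TGATGNAA. Each was searched on both strands of the RefSeq windows (GRCm38.p6) of 250 bases before to 50 after the start of each gene. Among 32851 windows of all genes 0.119% held the first element, 0.0365% the second and 3.97% the third. Of the 10 members 5 held a match and 5 held none, which says only that these letters are not in those windows. The stretches before the start that hold a match follow, with the matched letters in capitals; in Herpud1 and Chac1 the composite element reads on the opposite strand.
Hspa5, chr2:34771985-34772083, plus strand: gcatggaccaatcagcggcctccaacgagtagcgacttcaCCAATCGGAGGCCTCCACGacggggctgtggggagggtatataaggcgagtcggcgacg
Herpud1, chr8:94386277-94386427, plus strand: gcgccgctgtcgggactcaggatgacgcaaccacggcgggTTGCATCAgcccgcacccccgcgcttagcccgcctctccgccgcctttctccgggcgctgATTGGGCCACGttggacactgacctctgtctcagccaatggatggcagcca
Asns, chr6:7693210-7693272, minus strand: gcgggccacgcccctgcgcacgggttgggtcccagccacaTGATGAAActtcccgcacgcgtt
Chac1, chr2:119351009-119351096, plus strand: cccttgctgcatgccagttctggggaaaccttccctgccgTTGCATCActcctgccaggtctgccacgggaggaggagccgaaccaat
Hspa5 carried its element 65 to 47 bases before the start. Herpud1 carried both kinds, the composite element at 112 to 105 bases and the short stress element at 52 to 42 bases before the start. Asns and Chac1 carried only the composite element, at 23 to 16 and at 193 to 186 bases. In Trib3 the composite element lay just after the start.

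Among the transcription factors, Xbp1 encodes the factor that IRE1 activates by splicing. Its probe read 14.52 and 14.72 in SA at day 20, 14.79 and 14.86 at day 38, 14.75 and 14.96 at day 60, and 14.60 and 14.49 in WT. SA at day 38 lay above WT without overlap, by 0.28 (SE 0.16, 95% interval −0.09 to 0.65, adjusted p = 0.456). Splicing was not analysed here. Atf5 encodes a factor of the ATF4 family that is induced under the same stress. It read 12.37 and 12.10, 11.90 and 11.65, and 11.80 and 12.13 in SA at days 20, 38 and 60, and 12.02 and 11.77 in WT. Day 38 of SA lay below day 20 without overlap (−0.46, 95% interval −0.94 to 0.02, adjusted p = 0.475), and the groups overlapped in the other 3 comparisons.

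Ddit3 encodes CHOP, a factor raised by ATF4 that promotes death under lasting stress. Its brighter probe read 10.40 and 9.63 in SA at day 20, 10.23 and 10.03 at day 38, 9.10 and 10.32 at day 60, and 9.93 and 9.97 in WT. The widest gap was between the SA samples of day 60, at 1.23, above 97% of genes in that pair. The second probe read 9.84 and 9.35, 9.63 and 9.46, 8.60 and 9.66 in SA and 9.46 and 9.27 in WT. Replicate 1 of day 60 was lowest on both probes, while the WT pair ran in opposite directions on them. With such a spread the interval for SA against WT at day 38 ran from −0.84 to 1.20 around a difference of 0.18 (adjusted p = 0.881).

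Atf4, which encodes the central factor of the integrated stress response, varied most between samples of the same group. Its only probe read 11.10 and 8.29 in SA at day 20, 10.41 and 8.19 at day 38, and 10.30 and 10.21 at day 60, and 8.33 and 10.41 in WT at day 38. The values fell into a low set of 8.19 to 8.33 on 3 arrays and a high set of 10.21 to 11.10 on 5 arrays, with nothing between. Gaps between the samples of a group were 2.81, 2.22 and 2.08 in SA day 20, SA day 38 and WT, each above at least 99.1% of genes in its pair, and 0.09 in SA day 60. Group means were 9.69 ± 1.99, 9.30 ± 1.57 and 10.25 ± 0.06 in SA at days 20, 38 and 60 and 9.37 ± 1.47 in WT (SD, n = 2 each). The interval for SA against WT at day 38 ran from −2.85 to 2.71 around −0.07 (adjusted p = 0.986), which spans 0.139 to 6.55 times the WT level.

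**Figure D2:**
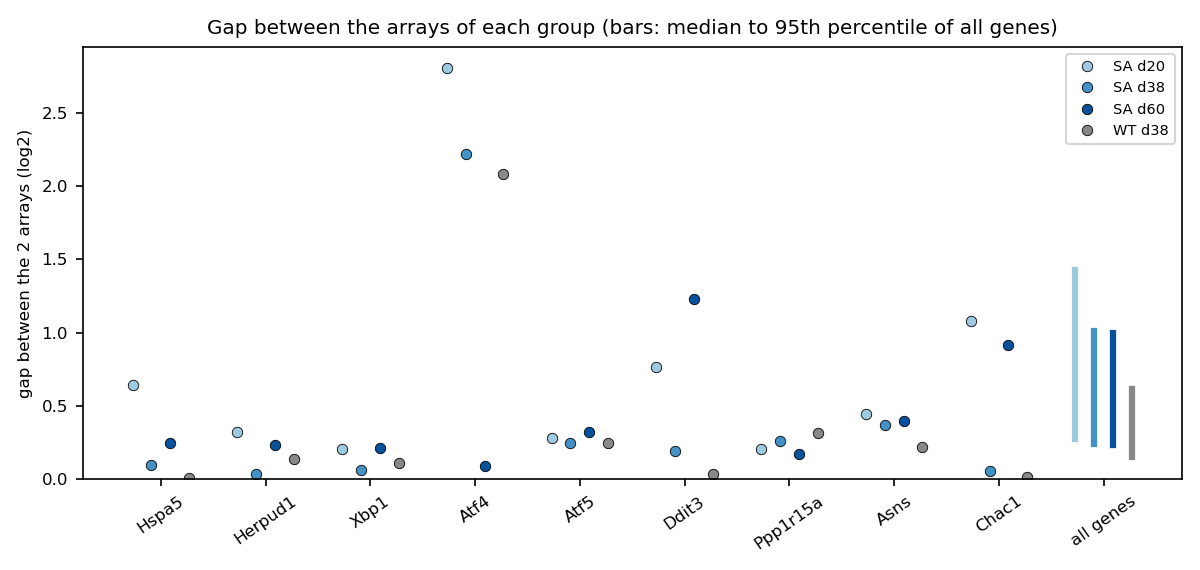
Absolute gap in log2 intensity (y axis) between the 2 arrays of each group for the 9 tested genes, with bars for the median to the 95th percentile over all 11661 genes at the right. Atf4 exceeded 2 in SA at days 20 and 38 and in WT at day 38, while the gap in SA at day 60 was 0.09.

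The known targets did not share one order with the Atf4 probe inside the groups that split. In the 3 split groups, the array with the higher Atf4 value also had the higher Ppp1r15a value in 3 of 3 pairs. The brighter Ddit3 probe gave 3 of 3 as well, but in WT by a gap of only 0.03, and the second Ddit3 probe ran the other way there. For Hspa5, Herpud1 and Atf5 it was 2 of 3 pairs and for Chac1 1 of 3. Asns, a standard ATF4 target, and Xbp1 were higher on the other array in all 3 pairs. These are counts over 3 pairs and were given no test.

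The feedback inhibitors act to end the response. Ppp1r15a encodes GADD34, the subunit that brings a phosphatase to eIF2alpha and restores protein synthesis. It read 10.92 and 10.72 in SA at day 20, 10.50 and 10.24 at day 38, 10.97 and 11.14 at day 60, and 10.04 and 10.36 in WT. Day 38 samples of both genotypes were the lowest 4 of the 8 arrays, and the days 20 and 60 samples of SA lay above all of them. This order was seen in the values, and its share over all genes was not counted. SA at day 60 exceeded SA at day 38 by 0.68 (SE 0.19, 95% interval 0.23 to 1.12, unadjusted p = 0.00939, limma adjusted p = 0.0899), which missed the threshold. Trib3 encodes a pseudokinase that restrains ATF4 and AKT signalling. Its dim probe read 7.01 and 7.66, 6.86 and 6.59, and 7.70 and 7.19 in SA at days 20, 38 and 60, and 7.26 and 6.83 in WT. Its group mean was lowest in SA at day 38. Day 60 exceeded that by 0.72 (adjusted p = 0.275 in a fit with every probe and no filter), at a level where the offset understates changes.

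Of the metabolic targets, Chac1 gave the largest member difference for SA against WT and for day 60 against both earlier days, but not for day 38 against day 20. Chac1 encodes an enzyme that breaks down glutathione and is a sensitive target of ATF4. Its probe read 12.25 and 13.33 in SA at day 20, 12.66 and 12.61 at day 38, and 11.57 and 10.65 at day 60, and 11.79 and 11.78 in WT at day 38. Both day 60 arrays lay below all others, and both SA arrays of day 38 lay above the WT pair. The share of all genes with day 60 below every other array was not counted. SA at day 60 stood at 0.346 times the day 38 level (log2 difference −1.53, SE 0.41, 95% interval −2.52 to −0.54, unadjusted p = 0.00877, adjusted p = 0.0886) and at 0.312 times the day 20 level (−1.68, interval −2.67 to −0.69, unadjusted p = 0.00558, adjusted p = 0.108). Neither passed. Without either day 20 array, which leaves the difference of −1.53 as it is and changes only the shared variance, the first reached an adjusted p of 0.0402. Day 60 also had the lowest Chac1 array, 10.65 in replicate 2, and without it the difference from day 38 was −1.07. Day 60 against day 20 compares groups alike in the sex-linked genes. At day 60 the skeletal muscle list lay below its levels at days 20 and 38 and the melanocyte list above them, and their part in the Chac1 difference was not tested.

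Asns encodes asparagine synthetase, which makes asparagine when amino acids run short. The brightest of its 3 probes read 12.01 and 12.46 in SA at day 20, 12.21 and 12.59 at day 38, 12.71 and 12.31 at day 60, and 11.88 and 11.66 in WT. All 6 SA arrays lay above both WT arrays, but the share of all genes that separate in this way was not counted. SA at day 38 exceeded WT by 0.63 (SE 0.24, 95% interval 0.05 to 1.21, unadjusted p = 0.0375, adjusted p = 0.322), a ratio of 1.55. The second probe averaged 10.59 ± 0.08 in SA and 9.85 ± 0.22 in WT at day 38 (SD, n = 2 each), a difference of 0.75 (adjusted p = 0.321 in the fit on every probe past the filter). The dimmest probe, below the filter at a mean of 6.89, differed by 0.09 in that comparison. The difference thus appeared on the 2 brighter probes and passed on neither.

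**Figure D3:**
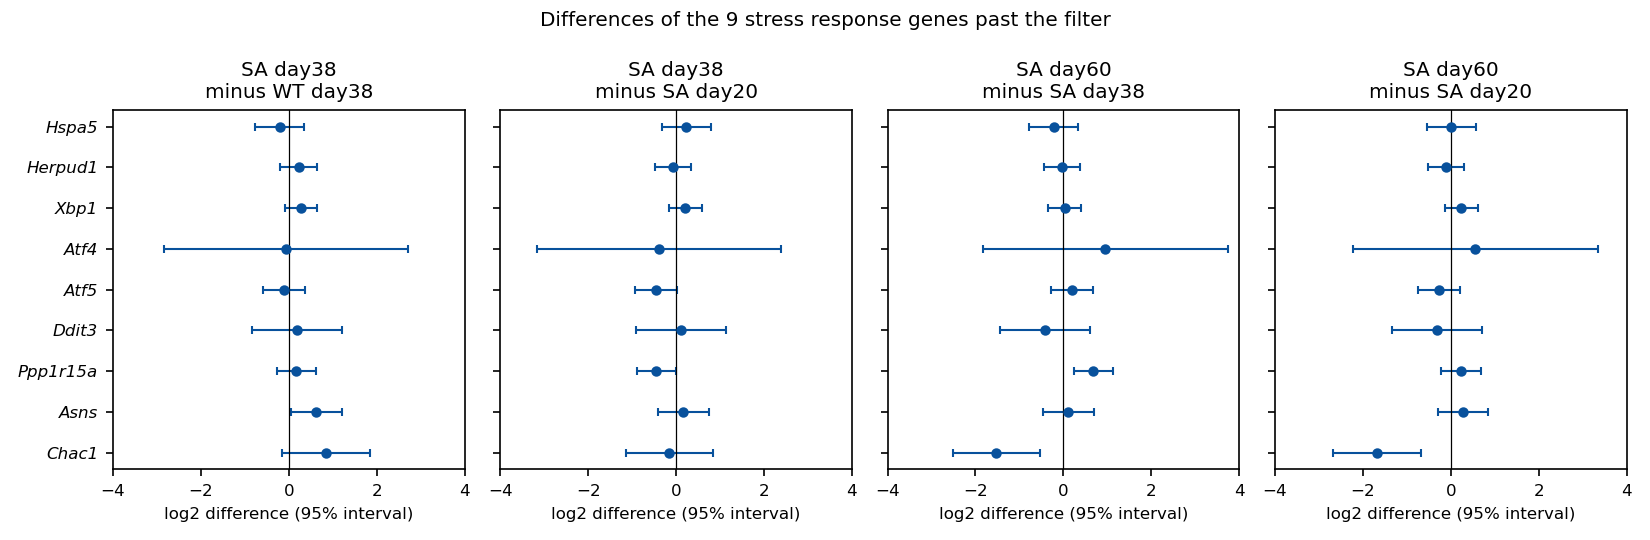
Log2 differences (x axis) with 95% intervals from limma for the 9 tested genes (rows) in the 4 comparisons (panels), each the later or SA group minus its reference. The Chac1 intervals lie below 0 for day 60 against day 38 and day 20, the Ppp1r15a interval lies above 0 for day 60 against day 38, the Asns interval lies above 0 for SA against WT, and Atf4 has the widest intervals.

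SA against WT at day 38 sets tumours with a receptor that resists degradation beside WT tumours. The same groups differ in sex-linked transcripts, so none of the differences below can be assigned to genotype rather than sex. Of the 9 tested members 6 were higher in SA and 3 lower, with a median difference of 0.18, against −0.02 over all genes. Groups did not overlap for 6 of 9 members, 5 of them higher in SA (Herpud1, Xbp1, Ddit3, Asns and Chac1) and 1 lower (Hspa5). Over all genes 54.1% did not overlap, 24.1% being higher in SA and 30.1% lower. The second Ddit3 probe overlapped. Chac1 was the largest difference, at 0.85 (95% interval −0.14 to 1.84, adjusted p = 0.404). Genes of the wider pathway, in 7 lists with 79 tested genes, gave 0 calls in either direction and 9 at an unadjusted p under 0.05 (11.4%, against 14.1% of all genes). Output genes of ATF4 and CHOP held 4 of these 9, led by the transcription factor Cebpb at 0.64 and the angiogenic factor Vegfa at 0.91 (adjusted p = 0.238 and 0.240), with Jdp2, a factor of the AP-1 group, at −0.79 (adjusted p = 0.248). Over all genes, 47% were higher in SA. Genes of ER translocation and COPII transport were lower in SA for 11 of 14, with a median of −0.26. The translocon subunit Sec61b stood at −0.55 (adjusted p = 0.248) and the vesicle coat gene Sec24d at −0.78 (adjusted p = 0.280), while the signal receptor gene Srpr stood at 0.79 (adjusted p = 0.278). ER chaperones were lower for 7 of 11 (median −0.08), led by the disulphide isomerases Pdia6 at −0.39 and P4hb at −0.32. Eif2ak3, which encodes PERK, read 9.92 and 9.44 in SA and 10.26 and 10.12 in WT, a difference of −0.51 that was not called (adjusted p = 0.465). Among amino acid genes the serine enzyme Psat1 stood at −0.56, the cystine carrier Slc7a11 at −1.06, the mitochondrial serine enzyme Shmt2 at 0.35 and the enzyme gene Got1 at 0.62, and 0 of 12 passed. Degradation genes and aminoacyl-tRNA synthetases stayed within −0.33 and 0.17, with medians of −0.04 and −0.06. Fat and muscle markers differed between the same groups, with medians of 3.63 over 5 fat genes and 3.69 over 7 muscle genes, higher in SA for 5 of 5 and 7 of 7 genes. Their part in these differences was not tested.

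For SA day 38 against day 20, 4 members were higher and 5 lower at day 38, with a median of −0.07 against 0.01 over all genes. The factor gene Atf5 and the phosphatase subunit gene Ppp1r15a lay lower at day 38 without overlap (−0.46 and −0.45, adjusted p = 0.475 and 0.464) and Xbp1 lay higher (0.21, adjusted p = 0.665). Over all genes 38.1% did not overlap, against 3 of 9 members. Of the ER chaperones 10 of 11 were higher at day 38, where 51.1% of all genes were, with a median of 0.35. None was called, 3 of 11 had an unadjusted p under 0.05 and 7 of 11 did not overlap. Fat markers were higher in the same comparison for 5 of 5 genes (median 1.52), and their part was not tested. The isomerase Pdia4 stood at 0.84 (adjusted p = 0.257) and Creld2, a secreted ER stress gene, at 0.68 (adjusted p = 0.245), while the co-chaperone gene Dnajc3 stood at −0.21. Hspa5 lay 0.23 above day 20. Limma called 0 of the 79 genes, and 8 had an unadjusted p under 0.05 (10.1%, against 10.7% of all genes). The glycine transporter gene Slc6a9, an amino acid target of ATF4, stood at −1.15 (SE 0.18, adjusted p = 0.105) and was the pathway gene with the smallest p. Lower at day 38 were also the C/EBP family gene Cebpg (−0.43) and the growth arrest gene Gadd45a (−0.79), and higher were Vegfa (0.87) and the death receptor gene Tnfrsf10b (0.49). By its list mean, replicate 1 of day 20 had the lowest melanocyte level of all 8 arrays. Its Mitf value (8.14) nevertheless lay above both WT arrays and both SA arrays of day 38. Without replicate 1 of day 20, Hspa5 differed by −0.09.

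SA at day 60 against day 38 gave the only call among the wider pathway, Slc6a9, which encodes a glycine transporter and rose by 1.26 (SE 0.18, adjusted p = 0.0442). It read 12.36 and 12.02 at day 60 and 10.96 and 10.89 at day 38, beside 12.20 and 11.95 at day 20 and 10.95 ± 0.07 in WT at day 38 (SD, n = 2). Both genotypes at day 38 thus shared the lower level, and the share of all genes with this order was not counted. Its adjusted p ran from 0.0213 to 0.186 over the alternatives, and the call was lost without any 1 of the SA day 38, SA day 60 or WT arrays, with no filter, with only the compared arrays and with the replicate block. The number of genes called over the whole array moved in the same way, at 127 with all arrays, 930 without either day 20 array and 1 or 2 without any other. The heavy and light chains of the large amino acid transporter stood higher at day 60, with Slc3a2 at 8.77 and 8.36, against 7.57 and 7.49 at day 38 (difference 1.04, adjusted p = 0.0837), and Slc7a5 at 14.33 and 14.78, against 12.36 and 12.88 (difference 1.94, adjusted p = 0.0841). These 2 did not pass, and Slc7a5 was named after its values were seen. Of the 12 amino acid genes in the same list 5 were higher at day 60 and 7 lower, with a median of −0.10. The lower ones were led by Mthfd2 at −0.47 and Phgdh at −0.29, each without overlap. Members split 5 higher and 4 lower with a median of 0.03, against 0.04 over all genes. Groups did not overlap for 3 of 9 members, against 57.9% of all genes. Ppp1r15a was higher (32.9% of all genes were higher without overlap), and Hspa5 and Chac1 were lower (25% of all genes).

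In the same comparison 53.7% of all genes were higher at day 60. Degradation genes of the ER were higher for 8 of 9, with a median of 0.27, and 5 of 9 had an unadjusted p under 0.05. Sel1l, a subunit of the ER ubiquitin ligase complex, stood at 0.65 (adjusted p = 0.0951) and Nploc4, a partner of the extraction ATPase, at 0.49 (adjusted p = 0.121), while Edem1, which recognises misfolded glycoproteins, stood at −0.79 (adjusted p = 0.151). Of the chaperones 7 of 11 were lower and 4 higher, with a median of −0.18 and 0 called. Creld2 stood at −0.64 (adjusted p = 0.0782) and the isomerase Pdia3 at −0.49 (adjusted p = 0.113), against P4hb at 0.27 and Hyou1 at 0.31. Of the aminoacyl-tRNA synthetases 8 of 10 were higher, with Sars at 0.58 (adjusted p = 0.0994) and Aars at 0.38, and Eprs at −0.52. Nck1, an adaptor known to act on eIF2alpha dephosphorylation, stood at −0.83 (adjusted p = 0.0757), Cebpg at 0.65 (adjusted p = 0.0841) and the translocon gene Sec61a1 at 0.65 (adjusted p = 0.107). Output genes of ATF4 and CHOP were lower for 9 of 15 (median −0.09), led by Tnfrsf10b at −0.26 and Vldlr at −0.46. In all, 19 of the 79 genes had an unadjusted p under 0.05, or 24.1% against 26.1% of all genes. Melanocyte markers were higher at day 60 for 5 of 5 genes (median 2.05) and muscle markers lower for 7 of 7 (median −3.38). Fat markers were lower for 5 of 5 (median −2.16) and macrophage markers for 4 of 4 (median −1.09). The part of any of these lists was not tested.

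**Figure D4:**
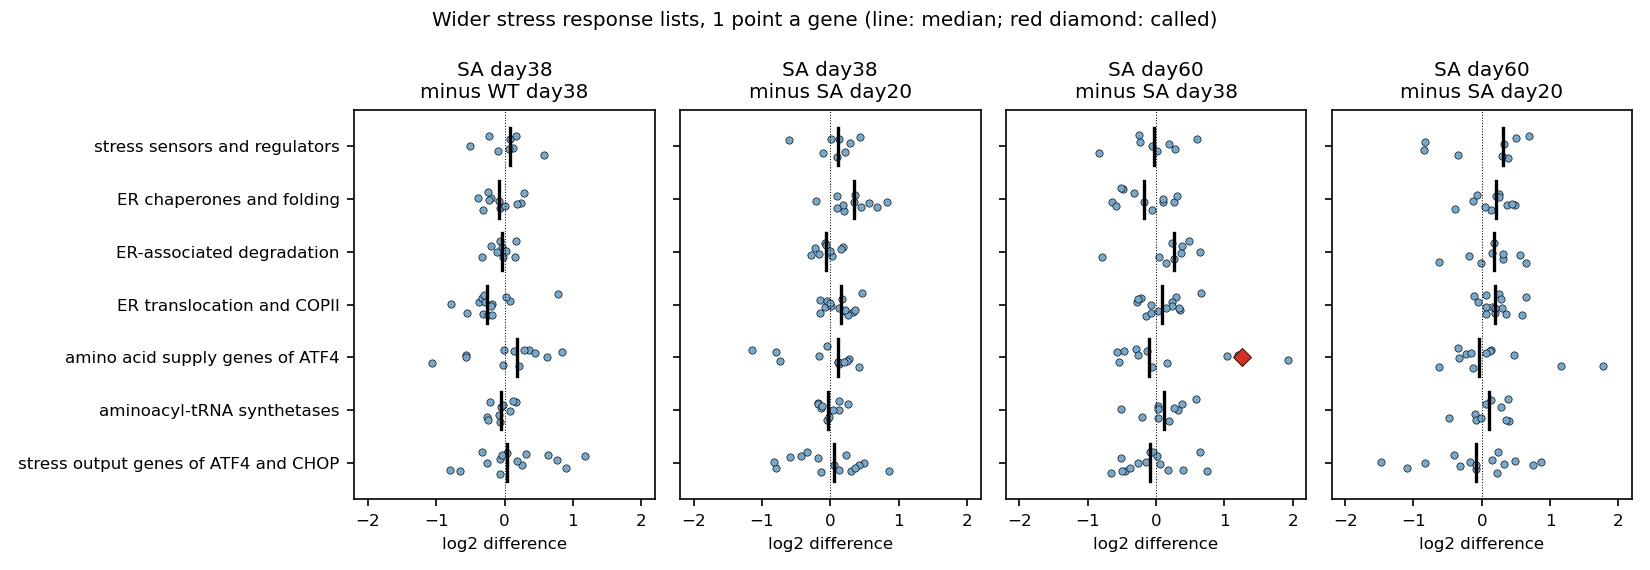
Log2 differences (x axis) of the 79 tested genes in 7 wider stress response lists (rows) in the 4 comparisons (panels), 1 point for each gene, with a line at the list's median and a red diamond for a called gene. The single call is Slc6a9 for SA day 60 against day 38; chaperones have a median of 0.35 for day 38 against day 20 and degradation genes one of 0.27 for day 60 against day 38.

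**Figure D5:**
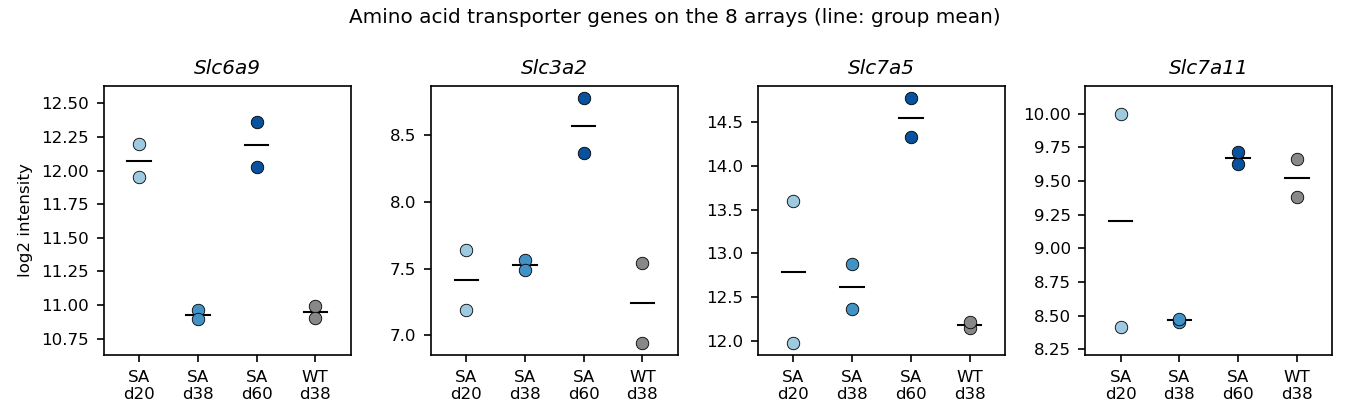
Log2 intensity (y axis) of 4 amino acid transporter genes on the 8 arrays, SA at days 20, 38 and 60 (d20, d38, d60) left of WT at day 38, with lines at group means. Slc6a9 is low in both day 38 groups, and Slc3a2 and Slc7a5 are highest in SA at day 60.

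SA at day 60 against day 20 spans the whole time course between groups alike in sex-linked genes. Chac1 was the largest difference among the members and the only 1 with an unadjusted p under 0.05. Xbp1 (0.24) and Ppp1r15a (0.23) were higher at day 60 without overlap, so that 3 of 9 members did not overlap, against 52.7% of all genes and 30% for those higher. Members split 5 higher and 4 lower, with a median of 0.01, against 0.03 over all genes. Limma called 0 of the 79 wider genes and 0 genes in all, with 13 of the 79 at an unadjusted p under 0.05 (16.5%, against 23.5%). Slc3a2 stood at 1.15 (adjusted p = 0.104) and Slc7a5 at 1.77 (adjusted p = 0.128). Slc7a5 read 11.98 and 13.60 at day 20, so that pair lay far apart, and 14.33 and 14.78 at day 60. Of the amino acid list 6 genes were higher and 6 lower (median −0.04), the lower ones led by Phgdh at −0.33 and Got1 at −0.63. ER translocation genes were higher for 12 of 14 (median 0.19), where 53.5% of all genes were, led by Sec61a1 at 0.65 (adjusted p = 0.137). The ubiquitin ligase genes Syvn1 and Sel1l stood at 0.56 (adjusted p = 0.114) and 0.65 (adjusted p = 0.127), and the chaperone Hyou1 at 0.49 (adjusted p = 0.164). Of the sensors and regulators, Nck1 stood at −0.83 (adjusted p = 0.108) and Impact, an inhibitor of the eIF2alpha kinase GCN2, at 0.50 (adjusted p = 0.134). Eif2ak3 read 10.38 and 10.17 at day 60 and 9.21 and 9.96 at day 20, a difference of 0.69 (adjusted p = 0.213). Lower at day 60 were the stress output genes Nupr1, a small chromatin protein, at −1.10 (adjusted p = 0.130) and Atf3, an early stress factor, at −1.47 (adjusted p = 0.167). Atf3 read 8.34 and 8.37 at day 60 and 10.73 and 8.93 at day 20, so replicate 1 of day 20 stood apart. Bcl2l11, which encodes the death protein BIM, stood at 0.87 (adjusted p = 0.188). Melanocyte markers were higher at day 60 for 5 of 5 genes (median 2.48) and muscle markers for 0 of 7 (median −2.81). Fat markers were higher for 0 of 5 (median −0.57) and macrophage markers for 0 of 4 (median −0.93). The part of these lists in the differences from day 20 was not tested. Without replicate 2 of day 20 the number of genes called over the array was 915, and without replicate 1 it was 6.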

How the data were processed

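Intensities of 8 Illumina bead arrays, 1 for each tumour sample, were taken from the deposited value table of 25697 probes. The deposited intensities run from 183.9 to 71767 on a linear scale. The array medians lay between 409.3 and 410, and the largest upper quartile of an array was 1352. The intensities were therefore read as quantile normalized without background subtraction. The submitters' processing notes name GenomeStudio 1.8. A second table, with 8 signal and 8 detection columns that no label ties to a sample, was not used, so the filter replaces a detection call. The number of arrays limits the precision. Values were corrected with limma 3.58.1 in R 4.3.3 (normexp, saddle, offset 16), put on the log2 scale and kept above the 40th percentile. The brightest probe stood for a gene, and all arrays entered a single linear fit of the 4 group means (lmFit, eBayes, 4 residual and 2.49 prior degrees of freedom). The fit was tested on simulated data with independent noise and planted differences larger than any member difference in the main fit. That test does not show how well differences of the reported sizes are found. Symbols came from the platform annotation (23978 probes with 1 symbol, 0 with several, 1719 with none), and 0 changed against RefSeq. Of each wider list the text names called genes and in either direction up to 2 genes of lowest p. Slc7a5 was named besides for SA day 60 against day 38. Not every gene that ranked so in a comparison is named. The members, lists and tests were chosen with earlier results of these data known. Genes without a row in the annotation were not analysed here, and 1 item of the mouse model is not reported here.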

Additional observations from a re-analysis of the deposited data

How the results depend on the processing

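No setting changed the 0 calls among members, except that Chac1 passed for SA day 60 against day 38 without either day 20 array (0 to 1 called when 1 array was left out). Of 668 member values under alternatives, 28 changed sign, all where an array was left out. Leaving out 1 array gave for SA against WT at day 38 a range of −1.18 to 1.04 for Atf4 and −0.24 to 0.0053 for Atf5. For SA day 38 against day 20 the ranges were −0.0862 to 0.56 for Hspa5, −0.23 to 0.0867 for Herpud1, −1.80 to 1.01 for Atf4, −0.27 to 0.50 for Ddit3, −0.0568 to 0.39 for Asns and −0.69 to 0.39 for Chac1. For SA day 60 against day 38 they were −0.15 to 0.0832 for Herpud1, −0.0759 to 0.14 for Xbp1, −0.15 to 2.06 for Atf4, −1.04 to 0.19 for Ddit3 and −0.0872 to 0.31 for Asns. For SA day 60 against day 20 they were −0.31 to 0.33 for Hspa5, −0.27 to 0.0531 for Herpud1, −0.84 to 1.97 for Atf4, −0.92 to 0.31 for Ddit3 and −0.21 to 0.43 for Trib3. The number of genes called over the whole array ranged from 1 to 42, 1 to 46, 1 to 930 and 0 to 915 in the 4 comparisons when 1 array was left out, where the lone sample of a group was assumed to vary like the others. SA against WT at day 38, at 7, gave 4 without background correction and 36 with only the compared arrays. SA day 38 against day 20, at 2, gave 21 without background correction, 10 with offset 50, 15 with the filter at the 60th percentile, 1 with only the compared arrays and 14 with a variance trend. SA day 60 against day 38, at 127, gave 365 without background correction, 332 with the 60th percentile, 3 with no filter, 269 with every probe and 44 with only the compared arrays. With the replicate block these 3 comparisons gave 1 gene each; the replicate numbers did not pair the samples (correlations of deviations between groups −0.20 to 0.11, over 0.1 in 2 of 6 pairs), and no member was called with it. The cause of these changes was not tested.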

Other observations

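The split of the Atf4 probe within groups was rare, and was looked for after its values were seen. Of 11661 genes, 7 had samples over 2 log2 units apart in each of SA day 38, SA day 20 and WT day 38. In 3 of these, Atf4 itself included, the arrays that were high for Atf4 were high. At a gap over 1 the counts were 47 and 4. The 4 were Atf4, Tomm22, Hamp2 and H2aj. Tomm22, which encodes a receptor of the mitochondrial import machinery, followed Atf4 on all 8 arrays: it read 12.70 and 8.88 in SA at day 20, 11.81 and 8.70 at day 38 and 11.74 and 11.85 at day 60, and 8.60 and 11.77 in WT. Hamp2 and H2aj differed from Atf4 at day 60, with 7.30 and 7.59, and 9.18 and 6.20. Atf4 and Tomm22 both lie on chromosome 15, with 15 protein-coding genes between them. Of these 11 were tested and 0 had samples over 1 apart in all 3 groups. The cause was not tested.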
